A study of Xenopus tropicalis with 52 samples.

Results

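The comparison described here set the cleavage-stage polyA+ profile of *Xenopus tropicalis* embryos from 1 clutch beside that of another clutch: the 7 Series 1 polyA+ libraries collected every 0.5 h from 0.0 to 3.0 h post fertilisation (hpf) against the 7 Series 3 polyA+ libraries of the same times, paired by time. These are 14 of the 52 libraries of the series. The gene rows present in both count tables were used, 19372 rows of the 21750 in the Series 1 and 2 table and the 20193 in the Series 3 table, and the 11227 that reached 10 counts in 7 or more of these libraries were tested. The whole study followed embryos from fertilisation to gastrulation in 3 series, each from a different female, with ribosome-depleted (Ribo-Zero) libraries made from the Series 3 RNA at whole hours.

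All embryos were untreated whole embryos from *in vitro* fertilisation, and no mutant or transgene is named for any group. Each Series 1 library was made from a pool of 50 embryos of 1 fertilisation, with an Illumina mRNA kit and paired 39-base reads on a Genome Analyzer. Each Series 3 library was made from a pool of 10 embryos of 1 fertilisation of a female from a different frog colony, from less RNA, with TruSeq poly(A) beads followed by a ScriptSeq kit and paired 50-base reads on a HiSeq. The cleavage cycles took 20 min in Series 1 and 25 min in Series 3. The clutch (its female and its fertilisation) is therefore confounded with the colony, the pool size, the kit, the sequencer, the read length and the rate of cleavage, and none of these can be told apart in any level difference below. Each time point of each series is 1 library. The time points stand in for replicates, and the p-values measure only the scatter of these libraries about a line or about the time points of 1 clutch per series.

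The fertilised egg carries a store of maternal mRNA, and the embryo makes almost no RNA of its own while it cleaves. In this period the poly(A) tails of stored messages are lengthened or shortened in the cytoplasm. In the oocyte and egg a short tail generally keeps a message silent, and lengthening it brings the message into translation. A polyA+ library takes up RNA through its tail, so a message can rise or fall in such libraries with no change in its amount, whereas a Ribo-Zero library is made without regard to the tail. In these pools of whole embryos the amount of an RNA and the share of it that carries a long enough tail cannot be told apart from the polyA+ values alone.

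Values are normalised reads, counts per 25000000 mapped reads without ribosomal rows, as the authors scaled them. The 7 Series 1 libraries held 19925593 to 24659133 counts and the 7 Series 3 libraries 7765415 to 17998536. A count of 0 is therefore compatible with up to 3.1 to 4.03 normalised reads in Series 1 and 4.17 to 9.67 in Series 3, counting error only. Of the 26 oocyte and egg markers listed, 24 had a gene row, and these 24 were above 10 normalised reads in both series. Of genes of zygotic activation with a row (35 of 38 listed), 5 were so in Series 1 and 6 in Series 3. In each series it was so for 1 of 11 blood genes (19 listed) and 1 of 20 follicle and ovary genes (23 listed). For testis and sperm genes it was 4 of 9 in each (26 listed). The summed level of the oocyte list was 127301 to 184962 in Series 1 and 269777 to 423806 in Series 3. That of the zygotic list was 7474 to 16038 in Series 1 and 653 to 3324 in Series 3.

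Some libraries stood apart. In Series 3 the 0.0 hpf library had a rank correlation (Spearman rho across genes, a description) of 0.862 to 0.922 with the other 6 libraries, which among themselves reached 0.948 to 0.989. The same library had a rho of 0.891 with the Series 1 library of 0.0 hpf, whereas the later pairs of equal time had 0.704 to 0.775. In Series 1 the libraries of 0.5 and 1.5 hpf were the ones in which 45 genes were at least 2-fold higher than at 0.0, 1.0 and 2.0 hpf, against 5 such genes in Series 3. The opposite alternation, at least 2-fold lower at 0.5 and 1.5 hpf, was seen for 70 genes in Series 3 and 0 in Series 1. *sox3* (Xetrov72016063), a neural and pluripotency factor deposited in the egg, had its highest values in the same libraries, at 8611, 31386, 8272, 33679, 16149, 10508 and 12419 normalised reads in Series 1 in order of time, and at 8335, 6428, 8958, 6022, 9331, 9564 and 7817 in Series 3. Counts that the 0.0 hpf library of Series 3 moved by over 1.5 times are given with and without it, and so are the slopes of the named genes that lost a call without it.

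The first question was whether a message that gained or lost polyA+ reads during cleavage in 1 clutch did so in the other. A straight line in time was fitted per gene and series (edgeR quasi-likelihood test, Benjamini-Hochberg adjusted over all tested genes, slope in log2 units per h). Both lines of a gene were fitted together over the 14 libraries, with 1 shared estimate of the spread. Each SE and call in 1 series therefore also depends on the scatter of the other series. Each SE is the absolute estimate divided by the square root of the F statistic of its test. In Series 1, 2766 genes rose (24.6% of the genes tested) and 2993 fell (26.7%). In Series 3, 2085 rose (18.6%) and 2351 fell (20.9%). Without its 0.0 hpf library 1728 rose and 1331 fell in Series 3, and from 0.5 to 3.0 hpf in both series 1919 rose and 1605 fell. Leaving out the Series 3 library of 0.0 hpf also moved the Series 1 counts, to 3141 rising and 3517 falling. The same 1589 genes rose in both (14.2%) and the same 1383 fell in both (12.3%), whereas 35 rose in Series 1 and fell in Series 3 (0.312%) and 21 did the reverse (0.187%). Without the Series 3 library of 0.0 hpf, 12 genes rose in Series 1 and fell in Series 3 and 39 did the reverse. Of the genes rising in Series 1, 57.4% also rose in Series 3, and of those rising in Series 3, 76.2% rose in Series 1. For falling genes the shares were 46.2% and 58.8%.

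Among the 1142 Series 1 risers that were not called in Series 3, 892 had a positive slope there, and among the 1589 Series 1 fallers not called in Series 3, 1303 had a negative one. The shares of all tested genes with a Series 3 slope of each sign are not given here. The median slope of the shared risers was 0.76 per h in Series 1 and 0.61 in Series 3, and that of the shared fallers was -0.52 and -0.40. These are slopes per h, and Series 3 embryos cleaved at 0.8 of the Series 1 rate; with Series 3 times multiplied by 0.8 the Series 3 medians would be 0.76 and -0.50. A slope difference in either direction was called for 79 of the 1589 shared risers and 106 of the 1383 shared fallers. Over all 11227 tested genes it was more positive in Series 3 for 396 (3.53%) and more negative for 444 (3.95%). Across all tested genes the slopes of the 2 series had a Pearson r of 0.439 and a Spearman rho of 0.644, and across the 7497 genes with a mean of at least 100 normalised reads in both series 0.73 and 0.776; these are descriptions across genes, which share their libraries. The median slope over all tested genes was -0.04 per h in Series 1 and -0.03 in Series 3, and scaling to library totals in place of TMM moved these to 0.22 and 0.08. The counts then became 4254 rising and 1125 falling in Series 1 and 2831 rising and 1395 falling in Series 3, with 2399 rising and 389 falling in both. Without the 0.0 hpf libraries 1425 rose in both, 1204 of them among the 1589, and 1350 fell in both, 928 of them among the 1383.

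**Figure D1:**
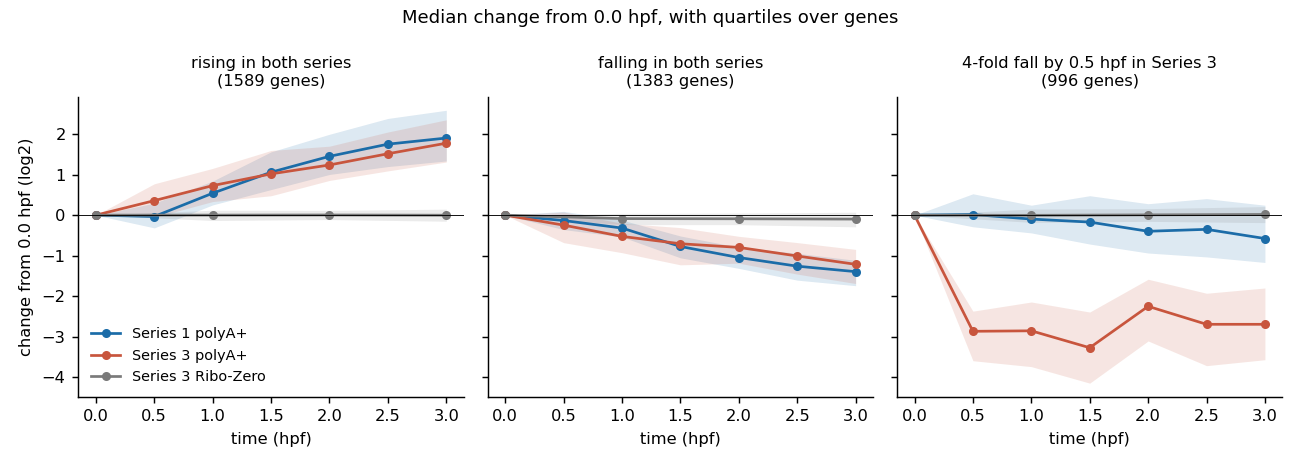
Median log2 change of normalised reads from the 0.0 hpf library (y axis, shading from the 25th to the 75th percentile of genes, which is spread over genes and not replicate error) against time in hpf, for 3 sets of genes in the Series 1, Series 3 and Ribo-Zero libraries. The 1589 shared risers reached a median of 1.91 in Series 1 and 1.78 in Series 3 at 3.0 hpf, and the 996 genes of the right panel, chosen by their fall from 0.0 to 0.5 hpf in Series 3, were at -2.70 in Series 3 and -0.58 in Series 1 at 3.0 hpf.

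The shared risers climbed along a similar course, as the profile plot shows, with a difference at the start. Medians and counts of changes between single libraries are on the log2 scale of TMM-scaled normalised reads plus 10, which understates the changes of low genes. Those between Ribo-Zero libraries are on the same scale without TMM. The median change of the shared risers at 0.5 hpf was -0.03 in Series 1 and 0.36 in Series 3, at 1.5 hpf 1.06 and 1.02, and at 3.0 hpf 1.91 and 1.78. In the Ribo-Zero libraries, made from the same RNA as the Series 3 polyA+ libraries, these genes had a median change of 0.00 from 0 to 3 hpf. Over all tested genes the Ribo-Zero median was -0.04. The shared fallers reached a median of -1.40 in Series 1 and -1.22 in Series 3 at 3.0 hpf, and -0.10 in the Ribo-Zero libraries. The members of both sets were chosen by the polyA+ slopes, so the polyA+ medians are descriptions, and the Ribo-Zero values are the independent measure.

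The steepest shared riser was *arl9* (Xetrov72022029), a small GTPase of the ARF-like family. It was at 17.3, 25.5, 60.8, 145, 426, 759.9 and 1365 normalised reads in Series 1 and at 25.9, 44.8, 116, 281, 485, 812 and 1354 in Series 3, a rise of 79.0-fold and 52.2-fold from 0.0 to 3.0 hpf, while its 4 Ribo-Zero values were 2607, 2303, 2412 and 2217. The slopes were 1.99 ± 0.13 (SE, adjusted p = 1.17e-06) in Series 1 and 1.82 ± 0.13 (SE, adjusted p = 1.21e-05) in Series 3, and the values of the 2 series overlapped over most of their range. *zfp64* (Xetrov72043078), a zinc finger protein, followed the same path from 32.3 to 781 normalised reads in Series 1 and from 17.3 to 364 in Series 3, with slopes of 1.48 ± 0.16 (SE, adjusted p = 9.85e-06) and 1.49 ± 0.17 (SE, adjusted p = 9.15e-05). *fbxo21* (Xetrov72020003), an F-box subunit of ubiquitin ligases, rose from 6.91 to 539 and from 2.88 to 297. The slopes of these 3 genes differed between the series by no more than 0.17 per h, with standard errors of 0.18, 0.19 and 0.37. Fold changes of single genes, here and below, are of normalised reads without TMM, whereas slopes are on the TMM scale. The TMM scaling relative to library totals went from 0.90 at 0.0 hpf to 1.45 at 3.0 hpf in Series 1. In Series 3 it went from 0.92 to 1.07. Folds from 0.0 to 3.0 hpf are thus larger for rises and smaller for falls than on the TMM scale, more so in Series 1.

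Other shared risers differed in level. *pygo2* (XB-GENE-6454464), a nuclear cofactor of Wnt signalling, was at 134, 265, 499.7, 1097, 2096, 4046 and 3822 in Series 1 and at 13, 20.24, 31.9, 81.7, 142, 175 and 399.7 in Series 3. The slopes were 1.51 ± 0.14 (SE, adjusted p = 4.44e-06) and 1.52 ± 0.15 (SE, adjusted p = 3.38e-05), but the level in Series 3 was -3.59 ± 0.20 (SE, adjusted p = 1.43e-06) on the log2 scale. *kifc3* (Xetrov72008632), a minus-end-directed kinesin, rose from 46.1 to 2156 normalised reads in Series 1 and from 20.17 to 399.7 in Series 3. *scnm1* (Xetrov72003676), a protein of the minor spliceosome, rose from 9.21 to 417 and from 2.88 to 61.2. *ccnb3* (Xetrov72013950), a B-type cyclin that the study names as a cleavage-stage gene, rose from 41.5 to 1070.1 and from 8.65 to 197, at Ribo-Zero values of 2913, 2705, 2919 and 2857.

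Among the shared fallers, *ap1m2* (Xetrov72037025), a subunit of a clathrin adaptor complex, dropped from 1089.6 to 22 normalised reads in Series 1 and from 1219.5 to 148 in Series 3. The fall per h was slower in Series 3, with slopes of -2.28 ± 0.16 (SE, adjusted p = 1.44e-06) and -1.13 ± 0.14 (SE, adjusted p = 0.000119) and a difference of 1.14 ± 0.21 (SE, adjusted p = 0.0101). *lmo4.1* (Xetrov72011135), a LIM-only transcription cofactor, was at 3308, 4262, 1846, 1584, 789, 571 and 629.6 in Series 1 and at 3689, 3010.2, 1617, 910.3, 841, 791 and 303 in Series 3, with slopes of -1.31 ± 0.15 (SE, adjusted p = 1.98e-05) and -1.22 ± 0.15 (SE, adjusted p = 0.000125), and the ranges overlapped almost entirely. *anubl1* (Xetrov72025359) was higher in Series 3 at each time point, at 31384, 38119.6, 18499, 9202, 3793, 2742 and 2353 against 7360.3, 5122, 2406, 827, 772, 650.0 and 683 in Series 1, and fell with slopes of -1.53 ± 0.18 (SE, adjusted p = 2.13e-05) in Series 1 and -1.66 ± 0.20 (SE, adjusted p = 0.000109) in Series 3. Its Ribo-Zero values were 10967, 12066, 12247 and 13209. *nell1* (Xetrov72011958), a secreted glycoprotein, fell from 257 to 43.9 in Series 1, and in Series 3 from 41.8 at 0.0 hpf to no more than 7.78 in any later library. Its Series 3 slope was -0.83 without the 0.0 hpf library (adjusted p = 0.492).

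**Figure D2:**
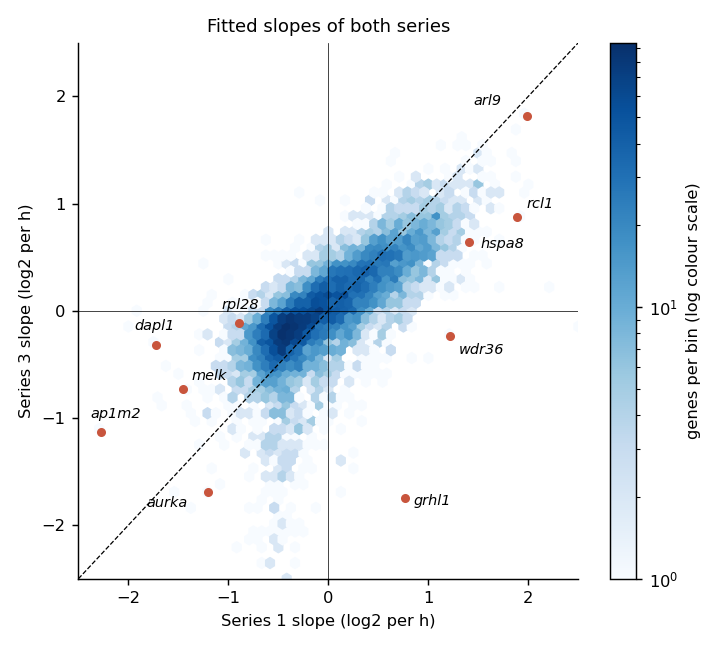
Slope in Series 3 (y axis) against slope in Series 1 (x axis), both in log2 units per h, for the 7497 genes with a mean of at least 100 normalised reads in both series, shaded by the number of genes per hexagon, with the line of equal slopes dashed; 5 genes lie outside the axes. The genes spread along the line, *arl9* at the upper right and *ap1m2* at the lower left, with *wdr36*, *rpl28* and *dapl1* among the named genes away from it.

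The gene groups below were compared by their counts beside those of all tested genes. Of 112 tested ribosomal RNA processing and ribosome assembly genes, 71 rose and 14 fell in Series 1, against 24.6% and 26.7% of all genes. In Series 3, 53 rose and 13 fell, against 18.6% and 20.9%, and 49 of the group rose in both series, against 14.2%. Their median slope was 0.62 per h in Series 1 and 0.27 in Series 3, against -0.04 and -0.03 over all genes. Of these 112, 13 had a called slope difference, 2 more positive and 11 more negative in Series 3, against 3.53% and 3.95% of all. These messages encode the factors that cut and fold ribosomal RNA in the nucleolus, a structure that cleaving embryos scarcely form.

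*rcl1* (Xetrov72021570), which takes part in the cleavage that separates the small-subunit ribosomal RNA, rose in both series, at 24.2, 12.1, 68.2, 82.6, 274, 654 and 1284 normalised reads in Series 1 and at 87.9, 62.2, 112, 159, 284, 235 and 638 in Series 3. The rise was 53.1-fold and 7.26-fold, and the slopes of 1.89 ± 0.17 (SE, adjusted p = 4.44e-06) and 0.88 ± 0.16 (SE, adjusted p = 0.00110) differed by -1.01 ± 0.23 (SE, adjusted p = 0.0241). *wdr36* (Xetrov72019376), a component of the small-subunit processome, was at 106, 83.4, 198, 257, 601, 1174 and 1512 in Series 1, but at 336, 57.8, 85.6, 62.4, 169, 149 and 161 in Series 3, where the 0.0 hpf library was the highest and the later ones lay between 57.8 and 169. Without that library the slope differences of *rcl1*, *wdr36* and *tsr1* (Xetrov72029286) were -0.87, -0.76 and -0.86, with adjusted p of 0.0713, 0.0623 and 0.0942. *tsr1*, a factor of small-subunit maturation, rose from 117 to 1985 in Series 1 and stood between 21.6 and 85.1 in Series 3, at a slope of -0.01 ± 0.20 (SE, adjusted p = 0.969) there. *gnl3* (Xetrov72042901), the nucleolar GTPase nucleostemin, rose from 517 to 6036 in Series 1 and lay between 0 and 80.7 in Series 3, with no overlap. The Ribo-Zero libraries held 4049 to 5866 normalised reads of *wdr36*, 3111 to 3224 of *tsr1* and 1892 to 2429 of *gnl3*.

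Of 72 tested genes of mitosis and the cell cycle, 46 fell and 13 rose in Series 1, against 26.7% and 24.6% of all. In Series 3, 42 fell and 11 rose, against 20.9% and 18.6%, and 37 of the group fell in both, against 12.3%. Under scaling to library totals 29 and 34 fell, against 1125 and 1395 of all 11227. The 4 Eg messages tested, those classically known to lose their tails after fertilisation of the *Xenopus* egg, fell in both series. *cdk2* (Xetrov72031041), a kinase of the cell cycle and one of them, was at 6576, 4082, 3222, 1515, 1161, 1237 and 949 in Series 1 and at 9864, 5584, 4737, 3869, 2999, 2286 and 1522 in Series 3, with slopes of -1.20 ± 0.09 (SE, adjusted p = 1.5e-06) and -0.93 ± 0.09 (SE, adjusted p = 3.38e-05). *kif11* (Xetrov72024951), the mitotic kinesin Eg5, fell from 26740.0 to 7862 and from 33014 to 4813, a 3.40-fold and a 6.86-fold fall of reads without TMM. Its slopes were -0.92 ± 0.10 (SE, adjusted p = 9.46e-06) and -1.02 ± 0.10 (SE, adjusted p = 3.87e-05). These did not differ by the test (difference -0.10 ± 0.14 (SE, adjusted p = 0.677)). *melk* (Xetrov72023632), a maternal kinase, fell 9.59-fold in Series 1 and 3.78-fold in Series 3, from 5161 to 538 and from 18137 to 4793, and the slope difference of 0.73 ± 0.14 (SE, adjusted p = 0.0124) was called. *aurka* (Xetrov72017409), the mitotic kinase Aurora A, fell from 29875 to 4903 in Series 1 over 3 h, and in Series 3 from 16668 to 1225 within the first 0.5 h and to 409 by 3.0 hpf. The 4 Ribo-Zero values of *aurka* were 10945, 9238, 9259 and 10473.

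*cdk1* (Xetrov72026627), the kinase that drives entry into mitosis, was at 9174, 5761, 6685, 3403, 2674, 2621 and 2304 in Series 1 and at 13179.9, 13678, 11472, 10004, 8360.1, 7397 and 6238 in Series 3. Both slopes were called, -0.94 ± 0.08 (SE, adjusted p = 3.88e-06) and -0.52 ± 0.09 (SE, adjusted p = 0.000608), and the fall per h was slower in Series 3 by 0.42 ± 0.12 (SE, adjusted p = 0.0462). *mad2l1* (Xetrov72022451), of the spindle checkpoint, fell 7.18-fold and 2.82-fold, with a slope difference of 0.67 ± 0.15 (SE, adjusted p = 0.0201). At 3.0 hpf Series 3 held 6238 normalised reads of *cdk1* and 3346 of *mad2l1*, against 2304 and 652 in Series 1. The slope difference of *cdk1* was 0.31 (adjusted p = 0.132) and that of *mad2l1* 0.52 (adjusted p = 0.0547) without the 0.0 hpf library of Series 3.

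Of 77 tested genes of poly(A) tail control and mRNA regulation, 25 rose and 28 fell in Series 1 and 16 rose and 18 fell in Series 3. Over all tested genes 24.6% rose and 26.7% fell in Series 1 and 18.6% and 20.9% in Series 3. Under scaling to library totals the group had 31 rising and 10 falling in Series 1 and 19 and 9 in Series 3. Of all 11227 tested genes 4254 rose and 1125 fell in Series 1 under that scaling, and 2831 and 1395 in Series 3. The balance of the group thus depends on the scaling, as it does over all genes. *pabpn1l* (Xetrov72010914), an embryonic poly(A)-binding protein, rose in both, from 68.0 to 1342 normalised reads in Series 1 and from 98.0 to 467 in Series 3, with slopes of 1.28 ± 0.11 (SE, adjusted p = 3.29e-06) and 0.52 ± 0.11 (SE, adjusted p = 0.00239). *patl2* (Xetrov72029393), a translational regulator of oocytes, rose in Series 1 with a slope of 0.91 ± 0.13 (SE, adjusted p = 8.76e-05), and in Series 3 its slope was 0.06 ± 0.14 (SE, adjusted p = 0.761). Its values were 138, 82, 151, 179, 419, 585 and 1232 in Series 1 and 379, 490.1, 552, 538, 448, 574 and 667 in Series 3. *stau2* (Xetrov72033760), which binds double-stranded RNA and carries messages along the cytoskeleton, rose from 92.1 to 858 in Series 1 and lay between 15.1 and 73.5 in Series 3. *pum2* (Xetrov72004428), a Pumilio repressor, was at 7704, 9408, 7981, 8951, 7524, 8806 and 9597 in Series 1, and in Series 3 at 1239.7, 39, 77.2, 38.4, 70.1, 34.8 and 83.8, so that every library after the first was under 100. Its 4 Ribo-Zero values were 8666, 8514, 8781 and 9171. In Series 3 the slope of *pum2* without the 0.0 hpf library was -0.043 (adjusted p = 0.899), and the slope difference of *stau2* was -0.61 (adjusted p = 0.283).

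Cytoplasmic ribosomal protein messages stood apart in level. Of 73 tested, 42 were higher and 4 lower in Series 3 (at least 2-fold, adjusted p under 0.05), against 21.1% higher and 32.0% lower over all tested genes. Their median level difference was 1.22 on the log2 scale, against -0.15 over all genes. For 32 of them all 7 Series 3 libraries lay above all 7 Series 1 libraries, which was so for 13.8% of tested genes. In time, 32 fell in Series 1 and 5 in Series 3, against 26.7% and 20.9% of all tested genes. Under scaling to library totals 9 fell and 10 rose in Series 1, so a direction in time for this family depends on the scaling. Of all 11227 tested genes 1125 fell and 4254 rose in Series 1 under library totals. Under TMM 0 of the 73 rose in Series 1, against 24.6% of all. The share of risers in Series 1 was thus below that of all genes in both scalings. The median Ribo-Zero change of the family from 0 to 3 hpf was -0.74, against -0.04 over all tested genes, both without TMM. Reads that mapped to more than 1 gene were discarded by the authors, and members of this family with near-identical copies are uncertain.

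*rpl38* (Xetrov72016569) was at 58.7, 40.3, 65.7, 75.4, 25, 19.1 and 40.3 in Series 1 and at 851, 1580.3, 1409, 1422, 1347, 1149.8 and 1096 in Series 3, a level difference of 5.04 ± 0.32 (SE, adjusted p = 2.15e-06) with no overlap. *rpl28* (Xetrov72027288) dropped in Series 1 from 1257 to 401 between 0.0 and 0.5 hpf and to 266 by 3.0 hpf, whereas Series 3 held 1359 to 2143 throughout. Its slope difference was 0.77 ± 0.18 (SE, adjusted p = 0.0254). *rpl29* (Xetrov72011257) and *rpl37* (Xetrov72024041) had the same shape, highest at 0.0 hpf in Series 1 (129 and 1813) and between 23.8 and 45.7 or between 106 and 314 afterwards. Without the Series 1 library of 0.0 hpf the slope differences of *rpl28*, *rpl29* and *rpl37* were 0.50, 0.68 and 0.70, with adjusted p of 0.0684, 0.0654 and 0.103, and without that of Series 3 they were 0.61, 1.02 and 1.13, with adjusted p of 0.0671, 0.0518 and 0.0696. In the family 5 slope differences were more positive and 0 more negative in Series 3, but from 0.5 to 3.0 hpf 0 and 3. Over all 11227 tested genes these counts were 396 and 444, and then 622 and 432. *rpl26* (Xetrov72b000278) was at 28.7 to 80.5 in Series 1 and at 378 to 835 in Series 3. Of 19 tested histone rows, 8 were higher and 6 lower in Series 3, against 21.1% and 32.0% of all tested genes. *hist1h2am* (Xetrov72031888) lay between 2662 and 6742 in Series 1 and between 21944 and 37501 in Series 3, while its Ribo-Zero values were 2886, 2108, 2194 and 2338, and *hist1h2aa* (Xetrov72031821) lay between 1430.0 and 7055 and between 8613 and 21432. The slope difference of *hist1h2am* was 0.40 without the 0.0 hpf library of Series 3 (adjusted p = 0.106). Histone rows share sequence, so their values carry the same uncertainty.

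**Figure D3:**
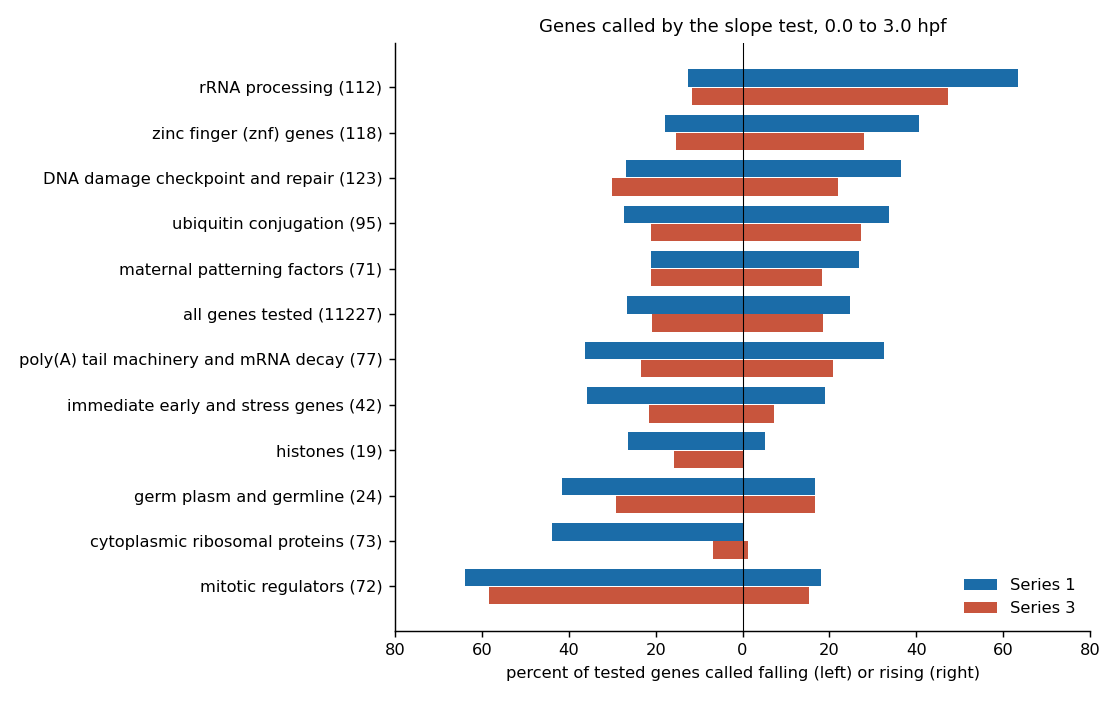
Percent of the tested members of each gene group called falling (bars to the left) and rising (bars to the right) in Series 1 and in Series 3, beside the same percent over all tested genes. The ribosomal RNA processing group had more risers than all genes in both series (71 and 53 of 112), and the mitotic group more fallers (46 and 42 of 72).

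Of 71 tested patterning and maternal transcription factor genes, 19 rose and 15 fell in Series 1 and 13 rose and 15 fell in Series 3. The shares over all tested genes were 24.6% rising and 26.7% falling in Series 1, and 18.6% and 20.9% in Series 3. Under scaling to library totals 25 of the 71 rose and 4 fell, and then 17 and 11. Of all 11227 tested genes 4254 rose and 1125 fell in Series 1 under that scaling, and 2831 and 1395 in Series 3. *vegt* (Xetrov72020640), the T-box factor that specifies endoderm and mesoderm, rose in Series 3 with a slope of 0.38 ± 0.12 (SE, adjusted p = 0.0260), and in Series 1 its slope was 0.17 ± 0.11 (SE, adjusted p = 0.224). Its values were 7328, 5360.0, 9068, 8476, 11587, 13274 and 15020.4 and 3344, 6315, 9464, 9944, 9333, 12423 and 12082, with nearly full overlap, and the slopes did not differ by the test (difference 0.21 ± 0.17 (SE, adjusted p = 0.439)). *foxi2* (Xetrov72039397), a maternal activator of ectoderm genes, was higher in Series 3 in every library, at 29290.4 to 60225 against 11406 to 18757 normalised reads, with a level difference of 1.82 ± 0.21 (SE, adjusted p = 4.03e-05). *wnt11b* (Xetrov72014262), a maternal Wnt ligand of the dorsal axis, lay between 534 and 1515 in Series 1 and between 2179 and 4185 in Series 3, a difference of 2.06 ± 0.24 (SE, adjusted p = 4.48e-05). *acvr1* (Xetrov72007305), a type I receptor for BMP ligands, lay between 5763 and 8692 in Series 1, and in Series 3 at 1835, 119, 93.9, 33.6, 173, 50.1 and 22.6. *grhl1* (Xetrov72000684), an epidermal transcription factor, went from 390.5 to 2438 in Series 1 at a slope of 0.76 ± 0.41 (SE, adjusted p = 0.131), and fell from 533 to no more than 40.9 in Series 3. When the 0.0 hpf library of Series 3 was left out, the slope there was 0.15 for *vegt* (adjusted p = 0.240), -0.68 for *acvr1* (adjusted p = 0.0768) and 0.40 for *grhl1* (adjusted p = 0.498), and the slope difference was -0.54 for *acvr1* (adjusted p = 0.330) and -0.36 for *grhl1* (adjusted p = 0.689).

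The remaining groups held both rising and falling genes. For zinc finger genes risers outnumbered fallers in both series under TMM, library totals and the size factors of DESeq2. With these size factors 47 rose and 22 fell in Series 1, and 30 and 23 in Series 3. For the other groups with slope counts below, the larger side changed with the scaling in at least 1 series. For ubiquitin conjugation it did so with the DESeq2 size factors, under which 20 rose and 26 fell in Series 3. Over all tested genes 24.6% rose and 26.7% fell in Series 1, and 18.6% rose and 20.9% fell in Series 3. Of 118 tested zinc finger genes, 48 rose and 21 fell in Series 1 and 33 rose and 18 fell in Series 3, and under library totals 62 rose and 9 fell, and then 43 and 11. Of 123 genes of DNA damage checkpoints and repair, 45 rose and 33 fell in Series 1 and 27 rose and 37 fell in Series 3, and under library totals 58 rose and 17 fell, and then 36 and 19. Of 95 ubiquitin conjugation genes, 32 rose and 26 fell, and then 26 and 20, and under library totals 48 and 9, and then 32 and 8. Of 42 immediate early and stress genes, 8 rose and 15 fell, and then 3 and 9, and under library totals 10 and 7, and then 7 and 4. *per1* (Xetrov72042258), a circadian clock gene and one of the fallers, was at 1226, 2226, 1112, 1653, 958, 472 and 259 in Series 1 and at 431, 46.3, 23.5, 7.21, 91.5, 19.5 and 35.5 in Series 3, where its slope was -0.18 without the 0.0 hpf library (adjusted p = 0.793). Of 24 germ plasm and germline genes, 4 rose and 10 fell in Series 1, and 4 rose and 7 fell in Series 3, and under library totals 7 rose and 3 fell, and then 4 and 3. Under that scaling all tested genes held 4254 rising and 1125 falling in Series 1 and 2831 and 1395 in Series 3. Of 32 antigen presentation and variable immune genes, 9 had enough counts to be tested. Of these 2 were higher and 1 lower in Series 3, against 21.1% and 32.0% of all tested genes.

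Some genes that the study names for the cleavage stage were examined whatever their values. *odc1* (Xetrov72001051), ornithine decarboxylase of polyamine synthesis, was at 41599.6 to 65915 in Series 1 and 31686 to 79630.0 in Series 3, which overlap, with a level difference of 0.04 ± 0.14 (SE, adjusted p = 0.804). It was called falling in both, with slopes of -0.46 ± 0.08 (SE, adjusted p = 0.000521) in Series 1 and -0.37 ± 0.08 (SE, adjusted p = 0.00285) in Series 3. *hspa8* (Xetrov72025443), the constitutive Hsp70 chaperone, rose from 647 to 17382 in Series 1 and from 1351 to 5119 in Series 3, and the difference in slope was -0.77 ± 0.16 (SE, adjusted p = 0.0186). The *hspa8* difference was -0.58 (adjusted p = 0.0629) and the Series 3 slope of *odc1* -0.24 (adjusted p = 0.0564) without the 0.0 hpf library of Series 3. *trim24* (Xetrov72038036), a transcription cofactor, rose 20.5-fold and 6.32-fold, with a slope difference of -0.59 ± 0.16 (SE, adjusted p = 0.0452). *akt2* (Xetrov72013687), a kinase of insulin signalling, rose in Series 1 from 77.2 to 883, and in Series 3 the values ran from 259 to 709 at a slope of 0.31 ± 0.13 (SE, adjusted p = 0.0786). *fam46c* (Xetrov72007828), a nucleotidyltransferase, was at 3823 to 8707 and 2518 to 8852, with neither slope called.

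*fam83c* (Xetrov72017537) was at 246 to 668 normalised reads in Series 1 and 142 to 474 in Series 3, overlapping, whereas the Series 2 libraries of 2.5 and 3.0 hpf (a further female, processed as Series 1 was) held 3.26 and 0. *nostrin* (Xetrov72005050), a regulator of nitric oxide synthase trafficking, was at 1.15, 0, 0, 0, 51.1, 519 and 587 in Series 1, at 0, 4.34, 0, 4.8, 0, 0 and 0 in Series 3, and at 0 and 1.57 in Series 2. *zap70* (Xetrov72020039), a kinase of T-cell receptor signalling, was at 0, 4.03, 0, 1.03, 23.9, 241 and 298 in Series 1 and at 13, 1.45, 0, 0, 3.89, 2.78 and 22.6 in Series 3, and at 0.814 and 2.35 in Series 2. Both had too few counts across the 14 libraries to be tested, and in both the late Series 1 values stood above every library of the other series. *atf3* (Xetrov72001921), a stress-induced transcription factor, lay between 3.1 and 70.8 in Series 1, between 0 and 52.5 in Series 3, and at 588 and 534 in Series 2. *trib2* (Xetrov72001422), a pseudokinase, fell in Series 1 from 4844 to 2366 by 2.0 hpf and then stood at 0 and 277, and in Series 3 went from 2469 to 373 by 0.5 hpf.

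The largest single step in either course was the first one of Series 3. Between 0.0 and 0.5 hpf, 996 of the tested genes (8.87%) fell at least 4-fold in Series 3 and 430 at least 8-fold, while 66 rose at least 4-fold. In Series 1 the same step held 15 falls and 35 rises of that size. Of the 996, 22 fell at least 2-fold over this step in Series 1, against 346 of all 11227 tested genes. At 0.5 hpf, 332 of the 996 had at most 3 counts in Series 3. The median log2 change of the 996 over the step was -2.87 in Series 3 and 0.02 in Series 1. Against the same 0.0 hpf libraries, the Series 3 one being among the values that chose these genes, the median at 3.0 hpf was -2.70 in Series 3 and -0.58 in Series 1, a description. In the Ribo-Zero libraries the median change from 0 to 3 hpf was 0.02, 981 of the 996 stayed within 2-fold of their 0 hpf value in every Ribo-Zero library, and 912 had at least 100 normalised reads in all 4. The quartiles of that change were -0.185 and 0.21 for the 996, and -0.22 and 0.14 over all tested genes, so Ribo-Zero values were flat in general. The shares of all tested genes behind 981 and 912 are not given here. The median level was 654 and 628 normalised reads at the 2 times in Series 1, 249 and 15.9 in Series 3, and 935 in the Ribo-Zero libraries.

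Several values moved with this step. Rows that name no gene took 0.0489% of the Series 3 library at 0.0 hpf, 0.143% at 0.5 hpf and 0.109 to 0.191% over all the later ones. In Series 1 their share moved over the same step too, from 0.0658% to 0.242%, and lay between 0.0598 and 0.242% throughout. These were different rows. In Series 1 the counts were in a row named katushka, which had none in the Series 3 polyA+ libraries. In Series 3 they were in rows whose names start with AC_EC. The sources used here do not explain these rows. A row with a numeric name only took 2.39% of the Series 3 library at 0.0 hpf and 5.37 to 9.66% of the later ones, against 0.195 to 0.627% in Series 1. *rbbp6* (Xetrov72004240), a ubiquitin ligase that binds the retinoblastoma protein, was at 27853, 155211, 88580.3, 180994, 42182, 105135 and 68496 normalised reads in Series 3, high at 0.5, 1.5 and 2.5 hpf, and at 12312 to 15191 in Series 1. The part of these shifts in the fall was not tested. With 1 library per time point, a change between 0.0 and 0.5 hpf in the embryos and a difference between those 2 libraries cannot be told apart.

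Among the genes with high Series 3 values at 0.0 hpf that fell, chosen after their values were seen, were *aurka*, *wee2* (Xetrov72039425), *ppp1r12a* (Xetrov72038069), *march7* (Xetrov72004765), *cep85* (Xetrov72030225), *tpx2* (Xetrov72043499) and *lima1* (Xetrov72029437). *lima1*, which cross-links actin, was at 11172, 229.9, 116, 55.2, 364, 106 and 135 in Series 3 and at 6377, 7473, 6764, 5248, 4158, 4193 and 4118 in Series 1, with Ribo-Zero values of 6490.4, 5403, 4925 and 4843. It fell 48.6-fold over the step in Series 3 and lay between 4118 and 7473 throughout in Series 1. *cep85*, a centrosomal protein, fell 22.8-fold from 12120.4 to 531, and *wee2*, the maternal kinase that inhibits Cdk1, 9.09-fold from 13853 to 1524. *wee2* went from 50325 to 79018 over the same step in Series 1. *tpx2*, a spindle assembly factor, fell from 11999 to 1715 in Series 3, and in Series 1 was at 15252 and 43805. *march7*, a membrane-associated ubiquitin ligase, and *ppp1r12a*, the targeting subunit of myosin phosphatase, fell 7.37-fold and 5.07-fold. Once the 0.0 hpf library was left out, the Series 3 slope was -0.61 for *wee2*, -0.17 for *ppp1r12a*, -0.32 for *cep85*, -0.63 for *tpx2* and -0.30 for *lima1*, with adjusted p of 0.151, 0.365, 0.497, 0.158 and 0.427, whereas the slopes of *aurka* and *march7* stayed called.

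*ehmt1* (Xetrov72036811), a histone H3 lysine 9 methyltransferase, was at 15075, 23423, 17059, 18562, 15474, 18509 and 12043 in Series 1 and at 3099, 23.1, 31.9, 48, 27.2, 18.1 and 58 in Series 3, a 134-fold step within the first 0.5 h. Its Ribo-Zero values were 5042, 5495, 5444 and 5835, and its Series 3 slope was 0.017 without the 0.0 hpf library (adjusted p = 0.986). *agl* (Xetrov72011620), the glycogen debranching enzyme, had 83 counts at 0.0 hpf and none in the 6 later Series 3 libraries, at least 130-fold lower against a limit of 3 counts over those 6 libraries. In Series 1 it lay between 245 and 404 normalised reads, and in the Ribo-Zero libraries between 428 and 571. *wnk2* (Xetrov72016348), *dgke* (Xetrov72017161), *ralgps1* (Xetrov72003484), *fmnl2* (Xetrov72004495) and *fam188a* (Xetrov72002895) had the same form, with 24.5 to 104 normalised reads at 0.0 hpf and 0 counts in each later Series 3 library and 98.5 to 513 in the Ribo-Zero libraries. By group, 6 of 72 mitotic genes, 7 of 112 of ribosomal RNA processing, 5 of 77 of poly(A) control and 7 of 71 of patterning fell at least 4-fold over the step, and 0 of 73 ribosomal protein genes did, against 8.87% of all tested genes.

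**Figure D4:**
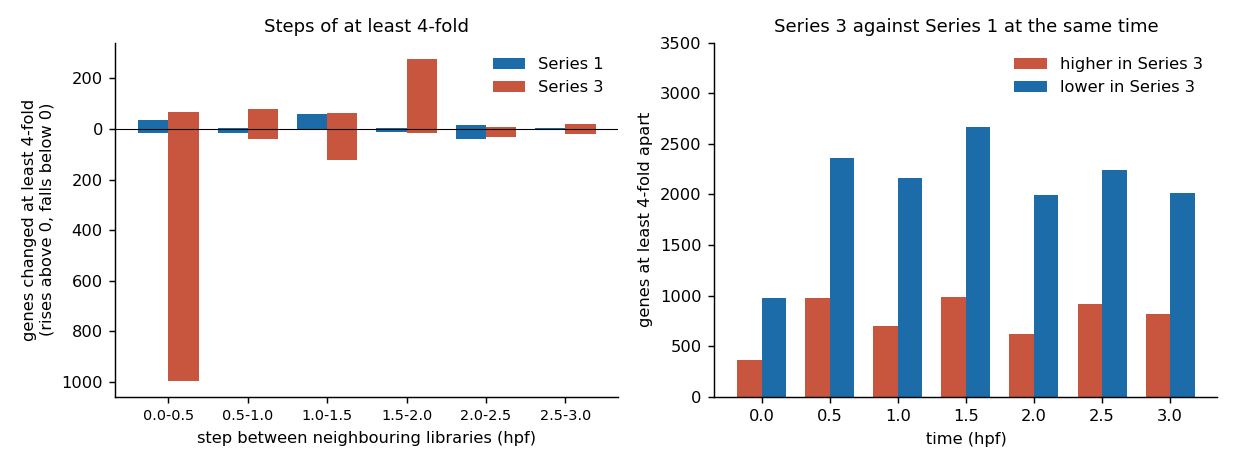
Left, the number of tested genes that changed at least 4-fold between neighbouring time points (x axis, start and end of the step in hpf), rises above and falls below 0, in each series. Right, the number of genes at least 4-fold higher or lower in Series 3 than in Series 1 at each time in hpf. The 996 falls of the first Series 3 step exceed every other step. The genes lower in Series 3 number 972 at 0.0 hpf and 1999 to 2668 later, and those higher 366 and then 624 to 982.

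By the test of the interaction of series with time, the slope of 396 genes was more positive in Series 3 (3.53%) and that of 444 more negative (3.95%). Of the 396, 356 fell in Series 1, and in Series 3 60 rose and 83 fell. Of the 444, 273 rose in Series 1, and in Series 3 77 rose and 205 fell. Scaling to library totals gave 72 and 584, and the size factors of DESeq2 228 and 443. Without the Series 3 library of 0.0 hpf the counts were 188 and 125, of which 96 and 97 were among the 396 and the 444. Without the Series 1 library of 2.5 hpf they were 79 and 163, and without that of 3.0 hpf 94 and 194. With Series 3 times multiplied by 0.8, the ratio of the cycle lengths, 108 and 233 were called. With the time point as a replicate block the counts were 41 and 45. Of the 40 named slope differences called, 7 stayed called with that block (*ap1m2*, *itpr2*, *l3mbtl2*, *fzd3*, *tsr1*, *mad2l1* and *hist1h2am*), and 9 of the 33 that could be fitted stayed called without the Series 3 library of 0.0 hpf. With Series 3 times multiplied by 0.8, 22 of the 40 stayed called and 18 did not.

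Several genes had called slopes of opposite sign, most of those below with few counts in 1 series. The 7 Series 3 libraries together held 34 counts of *bcl2l13*, 15 of *itpr2*, 12 of *ash1l* and 11 of *irs2*. A direction in time is uncertain at such counts. *bcl2l13* (Xetrov72032996), a mitochondrial member of the Bcl-2 family, rose in Series 1 at 169, 389.9, 413, 1332, 1745, 2343 and 2128 and in Series 3 was at 25.9, 15.9, 0, 0, 7.78, 0 and 3.22. *itpr2* (Xetrov72003215), a calcium channel of the endoplasmic reticulum, rose from 105 to 939.5 in Series 1. In Series 3 it was at 15.9, then 5.78 and then 0, at Ribo-Zero values of 929, 1077, 1170.1 and 999. *ash1l* (Xetrov72042400), a histone methyltransferase, and *irs2* (Xetrov72042106), an insulin receptor substrate, rose from 33.4 to 1044 and from 27.6 to 549 in Series 1. In Series 3 these had 15.9 and 13 normalised reads at 0.0 hpf and at most 3.89 later, and their slopes turned positive without the 0.0 hpf library. *tgm6* (Xetrov72017041), a transglutaminase, fell in Series 3 from 375 to 38.7 and was at no more than 10.8 in any Series 1 library. Without the 0.0 hpf library of Series 3 the slope differences of *bcl2l13*, *itpr2* and *tgm6* were -2.52, -4.96 and -2.21, with adjusted p of 0.0884, 0.0705 and 0.0591, and the Series 3 slope of *bcl2l13* was -1.48 (adjusted p = 0.166). The slope difference of *irs2* was then -0.68 (adjusted p = 0.867).

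In the reverse direction, *lsm7* (Xetrov72022787), a ring protein of the spliceosome and of mRNA decay, was at 3270.1, 656, 1138, 812, 1112, 847 and 1234 in Series 1, highest at 0.0 hpf, and rose in Series 3 at 183, 229.9, 391, 437, 706, 715 and 806. *l3mbtl2* (Xetrov72008772), a chromatin protein of the Polycomb family, went from 554 to 269.7 in Series 1 and from 89.4 to 458 in Series 3, with slopes of -0.62 ± 0.18 (SE, adjusted p = 0.0110) and 0.51 ± 0.18 (SE, adjusted p = 0.0375). *agap2* (Xetrov72028721), an ARF GTPase-activating protein, went from 122 to 54.9 and from 69.2 to 299.8. *cnpy2* (Xetrov72031670) fell from 1731 to 1139.7 and rose from 257 to 696, and *hmox1* (Xetrov72010573), the heme oxygenase, lay between 0 and 14.9 in Series 1 and between 30.3 and 343 in Series 3, highest at 2.0 hpf, with Ribo-Zero values of 39.2, 80.4, 248 and 91.5. With the 0.0 hpf library of Series 3 alone left out, the Series 3 slopes of *lsm7*, *l3mbtl2*, *agap2*, *cnpy2* and *hmox1* were 0.52, 0.27, 0.51, 0.34 and 0.85, with adjusted p of 0.0907, 0.278, 0.127, 0.0541 and 0.156. The slope differences of *l3mbtl2*, *agap2* and *hmox1* were then 0.89, 1.08 and 2.26, with adjusted p of 0.0537, 0.0639 and 0.0711. With the 0.0 hpf library of Series 1 alone left out, the Series 1 slopes of *lsm7*, *agap2* and *cnpy2* were -0.11, -0.58 and -0.18. These calls were then lost, with adjusted p of 0.485, 0.0633 and 0.195. Without the 0.0 hpf libraries, 7 of the 35 genes rising in Series 1 and falling in Series 3 and 4 of the 21 of the reverse kind were still called so. In all, 13 genes of the former kind and 34 of the reverse kind were called then. *fzd3* (Xetrov72036556), a Wnt receptor, differed through its last Series 1 libraries: it was at 3081, 3599, 3762, 3488, 2967, 622 and 537 in Series 1 and at 987, 1476, 1464, 2032, 1915, 1610.0 and 1850.3 in Series 3, and its slope difference was 1.26 ± 0.35 (SE, adjusted p = 0.0454). *plcxd2* (Xetrov72030928), of the phospholipase C family, was at 51.6 to 195 in Series 3, where its slope of -0.47 ± 0.23 (SE, adjusted p = 0.123) was not called. In Series 1 *plcxd2* was at 0 to 9.76, with 12 counts in all, and its slope difference was -2.22 ± 0.58 (SE, adjusted p = 0.0383). *dapl1* (Xetrov72006400) stood out at the other end, at 38571, 3132, 4082, 2585, 3548, 985 and 1257 in Series 1 and between 4282 and 7132 in Series 3. Without the 0.0 hpf library of Series 3 the slope differences of *fzd3*, *plcxd2* and *dapl1* were 1.08, -2.13 and 1.22, with adjusted p of 0.100, 0.0817 and 0.0650, and without that of Series 1 that of *dapl1* was 0.68 (adjusted p = 0.0936).

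The level test called more genes than the test of slope difference did, but the tests are unlike and their counts are not on the same scale. With time as a block, 2371 genes were higher in Series 3 (21.1%) and 3596 lower (32.0%) by at least 2-fold. With no fold limit 8322 genes (74.1%) differed. Within a 2-fold range lay 45.5% of tested genes, and 5% of genes had a log2 difference below -5.16 and 5% above 2.25. Past 4-fold, 775 were higher and 2419 lower. Among the 3236 genes with at least 1000 normalised reads in both series, 65.9% were within 2-fold. Both the lower and the higher genes numbered least at the start. At least 4-fold lower in Series 3 were 972 genes at 0.0 hpf and 1999 to 2668 at the later times. At least 4-fold higher were 366 and then 624 to 982.

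*neil3* (Xetrov72019966), a DNA glycosylase, had 0 counts in all 7 Series 1 libraries and was at 6726, 4624, 3838, 1934, 4100.3, 2843 and 3027 in Series 3, at least 8094-fold higher against a limit of 3 counts over the Series 1 libraries. The Ribo-Zero libraries held 1507, 1795, 1704 and 1771, and Series 2 held 1.63 and 3.13. Its Series 3 slope was -0.38 without the 0.0 hpf library (adjusted p = 0.0697). *bmpr2* (Xetrov72004614), the type II BMP receptor, lay between 0 and 2.39 in Series 1, between 209.6 and 422 in Series 3 and between 1681 and 1794 in the Ribo-Zero libraries. Its polyA+ level difference was 8.77 ± 0.49 (SE, adjusted p = 1.51e-06). Series 1 held 4 counts of it in all, so the size and the SE of this difference are uncertain. *nid1* (Xetrov72000298), the basement membrane protein nidogen, lay between 1.15 and 24.4 in Series 1 and between 223 and 722 in Series 3, with Ribo-Zero values of 1634, 1447, 1567 and 1664. *stk4* (Xetrov72017281), a kinase of the Hippo pathway, was at 341 to 1049.6 in Series 3 and at no more than 4.88 in Series 1, while its Ribo-Zero values were 34.3, 43.1, 29.8 and 65.8. *kcnk1* (Xetrov72014384), a potassium channel, was at 619.9 to 1741 in Series 3 and was seen in Series 1 in the 2.0 and 3.0 hpf libraries alone (27.2 and 23.2). *atp11a* (Xetrov72028961), a phospholipid flippase, was at 66.3 to 217 in Series 3 and likewise seen in the same 2 Series 1 libraries alone (7.61 and 7.32). *sh3d21* (Xetrov72029799) was at 47.6 to 274 in Series 3 and had 2 counts in Series 1, a ratio of 478 with a counting interval of 132 to 3948.

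In the other direction, *lmna* (Xetrov72041385), lamin A of the nuclear envelope, was at 317, 902, 1048, 1459, 1678, 8623 and 4779 in Series 1 and had 1 count in Series 3, a ratio of 1.05e+04 with a counting interval of 1.88e+03 to 4.15e+05. Series 2 held 1554 and 1284, and the Ribo-Zero libraries 2.45, 15.7, 44.8 and 36.6. *gucy1a2* (Xetrov72029443), a subunit of soluble guanylate cyclase, lay between 186 and 575 in Series 1 and had 0 counts in Series 3, at least 503-fold lower. Series 2 held 705 and 815 and the Ribo-Zero libraries 0 to 7.85. *aars2* (Xetrov72041456), the mitochondrial alanyl-tRNA synthetase, *pdxk* (Xetrov72018557), pyridoxal kinase, *kbtbd11* (Xetrov72000725) and *tbc1d20.2* (Xetrov72041586) also had 0 counts in all 7 Series 3 libraries, at least 433-fold, 297-fold, 242-fold and 178-fold lower. Of these, *kbtbd11* held 120.1 to 179 normalised reads in the Ribo-Zero libraries and *tbc1d20.2* no more than 3.92. *ints3* (Xetrov72028605), a subunit of the Integrator complex, had 1 count in Series 3 and 209.6 to 446 normalised reads in Series 1. *frat1* (Xetrov72035352), an inhibitor of GSK3 in Wnt signalling, lay between 1021 and 2979 in Series 1 and had 15.9 at 0.0 hpf and 0 afterwards in Series 3, while Series 2 held 331 and 237.

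**Figure D5:**
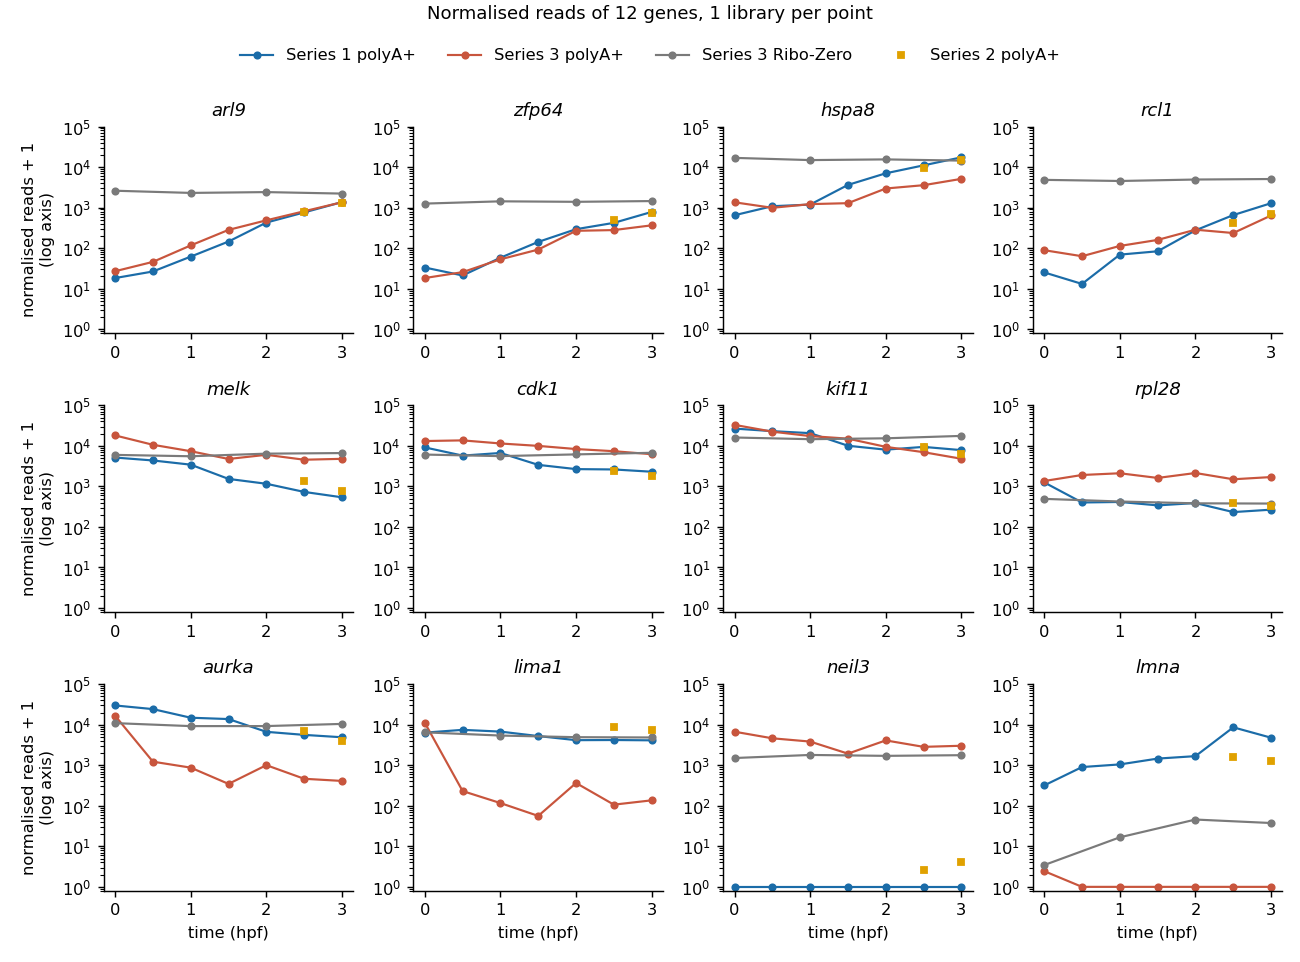
Normalised reads plus 1 (y axis, log scale) against time in hpf for 12 genes, in the Series 1, Series 3, Ribo-Zero and Series 2 libraries, 1 point per library with no error bar. *arl9* and *zfp64* overlap in Series 1 and 3, *lima1* drops from 11172 to 229.9 between 0.0 and 0.5 hpf in Series 3 polyA+ alone, and *neil3* and *lmna* are at or near 0 in 1 series.

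Genes nearly absent from 1 series were counted with the libraries outside the comparison beside them. There were 309 genes with a mean of at least 100 normalised reads in Series 1 and under 10 in Series 3. In the Ribo-Zero libraries, from the Series 3 embryos themselves, 196 of these had at least 100 and 21 under 10. In Series 2, 218 had at least 100 and 3 under 10. The reverse pattern held for 32 genes, of which 15 had at least 100 in the Ribo-Zero libraries and 17 under 10 in Series 2. Of the 309, 13 had 0 counts in all 7 Series 3 libraries, and of the 32, 4 had 0 counts in all 7 Series 1 libraries. The shares of all tested genes at these Ribo-Zero and Series 2 levels are not given here.

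Series 2 came from a further female and was prepared and sequenced as Series 1 was, and it shares the times 2.5 and 3.0 hpf. Between Series 2 and Series 1 at those times 76.9% of tested genes were within 2-fold, against 45.3% between Series 3 and Series 1 and 47.3% between Series 3 and Series 2. Of 486 genes at least 4-fold higher in Series 3 at 0.0 to 2.0 hpf, times that Series 2 does not cover, Series 2 was closer to Series 1 than to Series 3 for 420 (86.4%), and of 2138 genes at least 4-fold lower for 1825 (85.4%). Over all tested genes it was closer to Series 1 for 69.7%. The female and her clutch are the named differences between Series 1 and Series 2, and the colony, kit and sequencer separate both from Series 3 together. The libraries of Series 1 and Series 2 also differed in measure. Ribosomal rows took 0.0932 to 0.0958% of Series 2 and 0.975 to 6.67% of Series 1. Series 2 held 30744455 and 31932300 counts, and Series 1 at most 24659133.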

How the data were processed

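Total RNA from pools of *X. tropicalis* embryos was made into polyA+ libraries (Series 1 and 3) and, from the Series 3 RNA, Ribo-Zero libraries. The authors mapped reads to transcript models with Bowtie 0.12.7 (version from the submitters' processing notes), discarded reads that matched more than 1 gene and deposited raw counts per gene for each library. The deposited counts were scaled here to 25000000 reads per library without ribosomal rows, as the authors did, and differed from the deposited normalised signal by a relative 5.02e-07 at most. Reads from strands were not told apart in the sources used here, so genes that overlap are uncertain.

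Counts were tested with edgeR 4.0.16 in R 4.3.3 (TMM, quasi-likelihood test, Benjamini-Hochberg adjustment over 11227 genes, adjusted p under 0.05). Rows that name no gene stayed out of the tests and of the library sizes used with TMM. Apart from ribosomal rows, they counted in the totals behind normalised reads and in the scaling to library totals. They took 0.0598 to 0.242% of Series 1 and 0.0489 to 0.191% of Series 3 counts besides ribosomal rows (0.975 to 6.67% and 0.0340 to 0.128%). The row with a numeric name only was not among them. Levels were compared with time as a block, with a 2-fold minimum, and slopes with a line per series over 14 libraries. Both lines shared 1 estimate of the spread per gene. Each SE is the absolute estimate divided by the square root of the F statistic of its test. It is not a standard error computed for the coefficient itself. Alternatives were DESeq2 1.42.0, library totals, other count minimums, a block in the slope fit, scaled times and leaving out each library. Scripts were tested on simulated data. Medians of log2 changes used TMM-scaled values and a pseudocount of 10 normalised reads. Figures were drawn with matplotlib 3.10.9.

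The named genes have a symbol and a mean of at least 100 normalised reads in at least 1 series: the 8 with the largest level difference each way, the 6 with the largest smaller slope among shared risers and among shared fallers, the 6 with the largest slope difference each way, the 5 each way with called slopes of opposite sign, up to 4 members per group by slope difference and 2 by level, and the genes the study names for cleavage. Genes outside this rule (*cep85*, *lima1*, *march7*, *ppp1r12a*, *rbbp6* and *tpx2*) were chosen after their values were seen. The members, the gene groups and the tests were chosen with earlier results of these data known. Depths and limits of detection stand in the report, and cover counting error only.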

Additional observations from a re-analysis of the deposited data

Results flagged for a closer look

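Among the genes named, some had 1 library far from the other 6 of its series, by a gap to the nearest value that exceeded Dixon's 95% critical value for 7 samples. Chance gives such a gap in about 1 in 20 groups of replicates, and these libraries are time points and not replicates, so a steep course can give one too. In Series 3 the 0.0 hpf library was the highest, with normalised reads of at least 1000, for *aurka* at 16668, *ehmt1* at 3099, *trib2* at 2469, *odc1* at 79630.0, *wee2* at 13853, *pum2* at 1239.7, *acvr1* at 1835, *ppp1r12a* at 18431, *march7* at 13666, *cep85* at 12120.4, *tpx2* at 11999 and *lima1* at 11172. It was also the highest, at lower levels, for *lmna* at 1.44, *ints3* at 1.44, *frat1* at 15.9, *nell1* at 41.8, *per1* at 431, *ash1l* at 15.9, *irs2* at 13, *itpr2* at 15.9, *agl* at 119.6, *wnk2* at 104, *dgke* at 50.5, *ralgps1* at 50.5, *fmnl2* at 46.1, *fam188a* at 24.5, *wdr36* at 336 and *grhl1* at 533. In Series 1 the 0.0 hpf library was the highest for *lsm7* at 3270.1, *dapl1* at 38571, *rpl37* at 1813, *rpl29* at 129 and *rpl28* at 1257. The other single high libraries were those of Series 1 for *sh3d21* at 2.07, *nid1* at 24.4, *plcxd2* at 9.76 and *frat1* at 2979, and those of Series 3 at 3.0 hpf for *pygo2* at 399.7, *rcl1* at 638, *rpl29* at 574 and *pabpn1l* at 467 normalised reads.

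The slopes of the series differed for the following genes by the test of the interaction (edgeR quasi-likelihood test, Benjamini-Hochberg adjusted over all tested genes), given as Series 3 minus Series 1 in log2 units per h. The difference was positive, at 1.14 for *ap1m2*, 2.39 for *hmox1*, 1.23 for *lsm7*, 1.24 for *agap2*, 1.14 for *l3mbtl2*, 0.70 for *cnpy2*, 1.40 for *dapl1*, 1.29 for *rpl37*, 1.26 for *fzd3*, 0.73 for *melk*, 1.06 for *rpl29*, 0.77 for *rpl28*, 0.42 for *cdk1*, 0.67 for *mad2l1*, 0.87 for *hist1h2aa* and 0.61 for *hist1h2am*. It was negative, at -2.22 for *plcxd2*, -3.49 for *ash1l*, -2.90 for *irs2*, -4.37 for *itpr2*, -2.19 for *tgm6*, -2.65 for *bcl2l13*, -1.69 for *acvr1* and -2.51 for *grhl1*, and, closer to 0, at -0.77 for *hspa8*, -0.70 for *akt2*, -0.59 for *trim24*, -1.45 for *wdr36*, -1.30 for *tsr1*, -1.01 for *rcl1*, -1.15 for *stau2*, -0.85 for *patl2* and -0.76 for *pabpn1l*. For 7 genes with 0 counts in every Series 3 library after 0.0 hpf the fitted values of -5.07 for *frat1*, -9.46 for *agl*, -9.15 for *wnk2*, -7.52 for *dgke*, -7.07 for *ralgps1*, -6.83 for *fmnl2* and -6.30 for *fam188a* depend on how counts of 0 are treated and are not sizes of a fall.

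A row of the Series 3 table that has no counterpart in the Series 1 and 2 table, Xetrov72007035, had a mean of 1896 normalised reads over the 7 Series 3 libraries and entered no comparison.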

How the results depend on the processing

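Of 216 called values of single genes, 121 were called under every alternative run for them: 56 of 68 level differences, 38 of 56 Series 1 slopes and 27 of 52 Series 3 slopes, but no slope difference of 40. Of 3932 recomputed values 3541 kept their side of the threshold and direction, 380 lost the call and 11 changed sign. Without the 0.0 hpf libraries of both series, or without that of Series 3 alone, the Series 3 slope became 2.46 or 2.47 for *ash1l*, 0.47 or 0.47 for *irs2*, 0.0072 or 0.017 for *ehmt1* and 0.40 or 0.40 for *grhl1*, and the *ash1l* slope difference became 1.35 or 1.13. Over all single libraries left out, these slopes ran from -5.64 to 2.47 for *ash1l*, -5.15 to 0.47 for *irs2*, -3.16 to 0.017 for *ehmt1* and -2.05 to 0.40 for *grhl1*, and the *ash1l* difference from -6.99 to 1.13. The *patl2* level difference was -0.13 at 2.5 and 3.0 hpf only. No slope could be fitted for *agl*, *dgke*, *fam188a*, *fmnl2*, *frat1*, *ralgps1* and *wnk2* without the Series 3 0.0 hpf library, since 0 counts are left. The cause of these changes was not tested otherwise.

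Genes higher in Series 3 numbered 3745 with no fold limit and 775 past 4-fold. Library totals gave 4254 rising and 1125 falling genes in Series 1 and 1395 falling in Series 3. Slope differences more positive in Series 3 (396) numbered 622 from 0.5 to 3.0 hpf only, 649 with the DESeq2 Wald test, 228 with its size factors, 108 with Series 3 times multiplied by 0.8, 229 with at least 50 counts, 72 with library totals and 199 with no filter. The more negative ones (444) numbered 776 with the Wald test and 233 with scaled times. Leaving out 1 library at a time gave 2315 to 3141 rising and 2174 to 3517 falling genes in Series 1, 1531 to 2175 and 1331 to 2455 in Series 3, 2196 to 2502 genes higher and 3535 to 3685 lower in Series 3, and 79 to 624 more positive and 125 to 668 more negative slope differences.

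A replicate block (time point as a factor) in the slope fit left 41 more positive and 45 more negative slope differences, 32 and 45 of them shared, and without the block in the level fit 2261 genes were higher and 3454 lower. The deviations of libraries of equal time correlated at 0.0177 to 0.565 between the series, those of other pairs at -0.582 to 0.577. Between the series, libraries of 0.0 to 1.0 hpf correlated positively, and so did those of 2.0 to 3.0 hpf. Every pair between these early and late sets was negative, so the series shared an order in time. Of 7 Series 1 libraries, 1 matched the Series 3 library of its own time best, so equal times were mostly not the closest pairs. At these depths a count of 0 in a single Series 3 library is compatible with up to 4.17 to 9.67 normalised reads, depending on the library.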
